A study of Mus musculus with 16 samples.

Results

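The genes described here are the mouse lysozymes Lyz1 and Lyz2 and 8 genes that most myeloid cells or leukocytes express: Mpeg1, Cd52, Cd53, Ptprc, Laptm5, Coro1a, Irf8 and Spi1. They were chosen by name, and every non-control probe that the array files assign to them was taken. This gave 10 genes and 18 probes, out of 27670 genes and 41174 probes on the array. The files list Lyz1 as Lzp-s, Lyz2 as Lyzs and Spi1 as Sfpi1. Of the 18 probes, 14 were kept because the scanner marked them as clearly brighter than background on 4 or more of the 8 arrays, and with them 9 of the 10 genes. Spi1 was not kept.

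RNA from the cerebellum was hybridised to Agilent one-colour arrays, 1 array per sample. The Npc1-/- group held 4 arrays of homozygous mutants of the strain BALB/cNctr-Npc1m1N/J, on a BALB/c background. The wild-type group held 4 arrays of Npc1+/+ mice. All mice were 3 weeks old, no treatment is listed, the mutation is present in every cell of the body, and the labels give no sex for the arrays. They name 4 mice per genotype, and each p-value below rests on the variation among those animals. A second set of arrays, from Illumina, lists probe numbers without gene names and was not analysed here. Npc1 encodes the lysosomal membrane protein that exports cholesterol, and mice without it are a model of type C Niemann-Pick disease, in which macrophages and neurons fill with lipid.

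Signals are given on a log2 scale on which 0 is the array's own 75th percentile, a fairly bright probe, and negative values are dimmer. Npc1 itself averaged -2.47 ± 0.12 in Npc1-/- and -0.48 ± 0.12 in wild-type cerebellum (SD, n = 4 each, limma adjusted p = 0.00045). All 8 cerebellar markers examined were well above background on every array. Between 22182 and 28137 probes were well above background per array, the fewest on wild-type replicate 2. The number of arrays limits the precision of every value.

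Lysozymes are secreted and lysosomal enzymes that cleave the peptidoglycan of bacterial walls. In mice, Lyz2 encodes the M form made by macrophages and neutrophils, and Lyz1 encodes the P form, best known from Paneth cells of the intestine. The genes are a tandem pair on chromosome 10. The general myeloid genes cover other layers of the same cells: a pore-forming protein (Mpeg1), surface proteins (Cd52, Cd53), a receptor phosphatase (Ptprc, which encodes CD45), a lysosomal membrane protein (Laptm5), an actin regulator (Coro1a) and transcription factors that direct myeloid development (Irf8, and Spi1, which encodes PU.1). In healthy brain most of these transcripts come mainly from microglia, with smaller shares from macrophages at the borders of the brain and from blood cells.

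The upstream sequences of the lysozyme genes are shown first, to show how alike this pair of genes is. They are the 130 bases before the transcription start in the RefSeq promoter table (build GRCm38.p6, both genes on the minus strand, written 5′ to 3′). Lyz2 lies at chr10:117282273-117282402 and Lyz1 at chr10:117292869-117292998, and the starts are 10596 bases apart. Capitals mark the bases that differ between them.
Lyz2: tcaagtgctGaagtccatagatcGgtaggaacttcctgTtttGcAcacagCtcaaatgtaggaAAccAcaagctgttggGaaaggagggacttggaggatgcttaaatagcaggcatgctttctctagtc
Lyz1: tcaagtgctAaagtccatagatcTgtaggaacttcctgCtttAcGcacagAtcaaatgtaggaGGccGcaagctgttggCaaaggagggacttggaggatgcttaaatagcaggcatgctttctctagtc
Of the 130 bases, 120 matched (92.3%), and the last 50 before the start were identical. Both hold the ETS-type sequence CAGGAAGT (searched on both strands; here on the opposite strand, beginning 100 bases before the start). It occurs in 2.69% of the 32851 promoters of the table when the 250 bases before each start are searched, and among the other genes described here only the Ptprc promoter holds it. The table held promoters for 8 of the 10 genes, with none for Cd52 and Spi1.

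The binding sequence most often given for PU.1 contains GAGGAA, which was found in 23.3% of all promoters on either strand. It was found in Ptprc, Cd53 and Laptm5, 3 of the 8 genes with a promoter, and in neither lysozyme gene. The bases around the matches are given with the match in capitals, on the strand of the gene. They lie at chr1:138175441-138175480 (Ptprc, minus strand), chr3:106790166-106790205 (Cd53, minus strand) and chr4:130913261-130913300 (Laptm5, plus strand, where the match reads on the opposite strand), all in GRCm38.p6.
Ptprc: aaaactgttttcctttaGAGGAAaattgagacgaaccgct
Cd53: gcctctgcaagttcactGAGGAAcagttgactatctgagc
Laptm5: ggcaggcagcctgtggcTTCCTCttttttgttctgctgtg
GAGGAA and CAGGAAGT share the core GGAA of ETS factors, but by their letters no match of one can lie within the other. The ETS-IRF composite element, an IRF-type element and the E-box CACGTG were found in none of the 8 genes and in 2.30%, 2.98% and 6.02% of all promoters. A match describes the letters only, and the arrays did not measure these stretches.

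Lysozyme signal was 8.20 times as high in Npc1-/- as in wild-type cerebellum by the brighter Lyz2 probe and 8.02 times by the Lyz1 probe. The brighter Lyz2 probe (chromosome 10, 116785279 to 116785338 in the mm7 build of the files) gave 4.03, 4.08, 3.78 and 4.14 on the Npc1-/- arrays, against 0.44, 1.07, 1.39 and 0.99 on the wild-type arrays. Every Npc1-/- array lay above every wild-type array, with 2.39 log2 units between the lowest Npc1-/- and the highest wild-type value. Lyz2 rose by 3.03 ± 0.19 log2 units (SE), or 8.20-fold (limma adjusted p = 0.00045), the 5th largest increase among 17983 genes tested. In RNA from whole cerebellum, more cells of a type and more RNA per cell cannot be told apart.

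The second Lyz2 probe (chromosome 10, 116790004 to 116790063, mm7) starts 4725 bases farther along the chromosome. Its sequence is shown because it gives a second reading of Lyz2 from another stretch of the gene (mm7, minus strand, chr10:116790004-116790063).
Lyz2 probe: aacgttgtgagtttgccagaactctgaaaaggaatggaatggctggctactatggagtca
It gave -2.19, -2.12, -2.55 and -2.06 in Npc1-/- cerebellum, against -5.89, -5.56, -5.00 and -5.36 in wild-type cerebellum. The groups did not overlap, and of the wild-type group only 2 arrays had it clearly above background. By this probe Lyz2 rose by 3.22 ± 0.20 log2 units (SE, limma adjusted p = 0.000538 over all probes), a size that rests in part on wild-type readings near background.

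The Lyz1 probe (chromosome 10, 116796083 to 116796142, mm7) gave 1.38, 1.55, 1.05 and 1.52 in Npc1-/- cerebellum, against -2.26, -1.49, -1.17 and -1.59 in wild-type cerebellum. Here too every Npc1-/- array lay above every wild-type array. The rise was 3.00 ± 0.23 log2 units (SE), or 8.02-fold (limma adjusted p = 0.000878), the 6th largest among the genes tested.

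Whether the Lyz1 probe reads Lyz1 apart from Lyz2 cannot be told from these values. The files list the RefSeq transcripts of both genes for the Lyz1 probe, the only one of the 18 probes whose accessions named a second gene. The Lyz1 probe shared no run longer than 6 bases with either Lyz2 probe, so the probes themselves differ in sequence. The log2 difference between the brighter Lyz2 probe and the Lyz1 probe was nearly constant: 2.65, 2.53, 2.73 and 2.62 on the Npc1-/- arrays and 2.71, 2.55, 2.56 and 2.58 on the wild-type arrays. The mean difference was 2.63 ± 0.08 in Npc1-/- and 2.60 ± 0.07 in wild-type cerebellum (SD, n = 4 each, two-sided exact permutation p = 0.571). The counts below hold both genes, as the files name them.

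The rest of the lysozyme family was near background or did not pass. Of 9 family members on the array, 4 were tested, and only Lyz1 and Lyz2 rose. The milk protein gene Lalba had a log2 fold change of 0.38 (limma adjusted p = 0.832) and the sperm lysozyme-like gene Lyzl4 one of -0.22 (limma adjusted p = 0.945). No array had Lyzl1, Spaca3, Spaca5 or Lyg1 well above background, and 1 Npc1-/- array had Lyzl6.

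**Figure D1:**
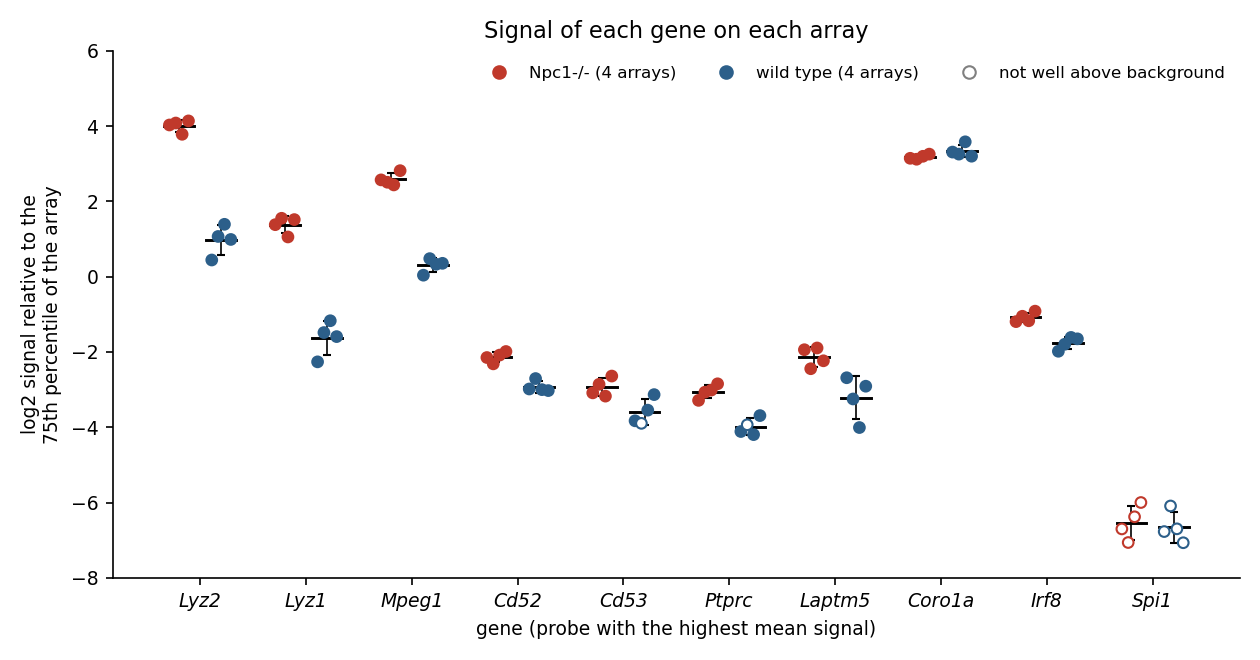
Signal of each gene on each array (log2 scale, 0 at that array's 75th percentile) for the probe with the highest mean signal. Red points are the 4 Npc1-/- arrays and blue points the 4 wild-type arrays; bars are the mean and SD, and open points were not well above background. Lyz2, Lyz1 and Mpeg1 show the widest gaps between the genotypes, and the Coro1a groups overlap.

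Across all 10 genes, 6 rose (Lyz1, Lyz2, Mpeg1, Cd52, Ptprc and Irf8), none fell, 3 did not pass the threshold (limma, Benjamini-Hochberg adjusted p under 0.05) and Spi1 was not tested. Over all genes tested, 0.734% rose and 0.767% were called in either direction. In 7 of the genes every Npc1-/- array lay above every wild-type array, against 2.96% of all genes tested. The median log2 fold change of the 7 general myeloid genes tested was 0.80, against -0.02 over all genes tested. Fitted probe by probe, 6 of the 14 probes rose, against 0.504% of all probes tested, and 9 of the 14 had all Npc1-/- arrays above all wild-type arrays, against 2.54%.

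Mpeg1, the gene of the pore-forming protein perforin-2 of macrophages, rose most among the general myeloid genes. Its brighter probe (chromosome 19, 12145020 to 12145079, mm7) gave 2.57, 2.51, 2.44 and 2.81 in Npc1-/- cerebellum, against 0.04, 0.48, 0.33 and 0.35 in wild-type cerebellum. The groups were 1.96 log2 units apart at their nearest arrays. Mpeg1 rose by 2.28 ± 0.13 log2 units (SE), or 4.86-fold (limma adjusted p = 0.00045), the 18th largest increase.

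The second Mpeg1 probe (chromosome 19, 12143330 to 12143389, mm7) gave -4.29, -4.63, -4.96 and -3.58 in Npc1-/- cerebellum, against -6.86, -3.73, -6.55 and -6.11 in wild-type cerebellum. Wild-type replicate 2 stood above the other wild-type arrays and above all but 1 of the Npc1-/- arrays. That array had the fewest probes above background, and its part in the value was not tested. No wild-type array measured the probe well above background. Its measured means were -4.36 in Npc1-/- and -5.81 in wild-type cerebellum (limma adjusted p = 0.789). Set against background the means differed 1.97-fold, but the groups overlapped, so no smallest rise can be given. When the probes of a gene were averaged, Mpeg1 gave 1.87 and lost its call (limma adjusted p = 0.0852).

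Cd52 encodes a short surface glycoprotein of leukocytes. Its probe (chromosome 4, 133472023 to 133472082, mm7) gave -2.15, -2.32, -2.08 and -1.99 in Npc1-/- cerebellum, against -2.98, -2.71, -3.00 and -3.03 in wild-type cerebellum. The groups did not overlap, and wild-type replicate 2 lay above the other 3 wild-type arrays, which were close together. Cd52 rose by 0.80 ± 0.11 log2 units (SE), or 1.74-fold (limma adjusted p = 0.0184).

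Ptprc encodes CD45, the receptor phosphatase on the surface of all nucleated blood cells. Its brightest probe, printed on 10 spots (chromosome 1, 137950290 to 137950349, mm7), gave -3.29, -3.07, -3.01 and -2.85 in Npc1-/- cerebellum, against -4.11, -3.93, -4.20 and -3.69 in wild-type cerebellum. The groups did not overlap, and the SD over spots of 1 array was 0.0755 to 0.165. Ptprc rose by 0.93 ± 0.14 log2 units (SE), or 1.91-fold (limma adjusted p = 0.0269). Of its other 3 probes, none was well above background on an array of either genotype.

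Irf8 encodes a transcription factor needed for the development of microglia and monocytes. Its brighter probe (chromosome 8, 119391398 to 119391457, mm7) gave -1.19, -1.05, -1.17 and -0.92 in Npc1-/- cerebellum, against -1.98, -1.80, -1.61 and -1.65 in wild-type cerebellum, with no overlap. Irf8 rose by 0.68 ± 0.11 log2 units (SE), or 1.60-fold (limma adjusted p = 0.0423). Its other probe differed by 0.66 ± 0.17 (SE), overlapped because Npc1-/- replicate 3 lay below wild-type replicate 4, and did not pass (limma adjusted p = 0.284 over all probes). Over all probes the brighter one did not pass either (adjusted p = 0.0572).

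The calls of Cd52, Ptprc and Irf8 lay near the threshold, and most fits with 1 array fewer lost them. With the slide as a fixed block, 0.206% of all genes rose and these 3 genes lost their calls, at 0.73, 1.02 and 0.71 log2 units (limma adjusted p = 0.122, 0.119 and 0.164). Within the slides that hold both genotypes, each with 1 wild-type array, Cd52 differed by 0.68, 0.64 and 0.90, Ptprc by 0.87 to 1.13, and Irf8 by 0.56, 0.74 and 0.81 on slides 2, 3 and 4. Of the 8 fits that leave out 1 array, Cd52 was called in 2, those without replicate 2 of either genotype, with a range of 0.75 to 0.87 log2 units (adjusted p = 0.0145 to 0.0758). Ptprc was called in the fits without replicate 1 of Npc1-/- and without replicate 4 of wild type, with a range of 0.86 to 1.03 (adjusted p = 0.0266 to 0.0997). Irf8 lost its call without any 1 of the 8 arrays, at 0.60 to 0.73 (adjusted p = 0.0574 to 0.162). The sizes moved little in these fits, while the adjusted p crossed the threshold. After normexp and quantile normalization Cd52 gave 0.53 (limma adjusted p = 0.0365) and Ptprc 0.43, without its call (limma adjusted p = 0.115). With the array's median in place of the 75th percentile, Cd52, Ptprc and Irf8 differed by 0.69, 0.82 and 0.57 and none passed (limma adjusted p = 0.195, 0.128 and 0.685).

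The lysozymes and Mpeg1 passed with the slide as a block and when any 1 array was left out. With the slide as a block, Lyz2, Lyz1 and Mpeg1 differed by 3.01, 2.98 and 2.26 log2 units (limma adjusted p = 0.0132, 0.0132 and 0.0135). Within slides 2, 3 and 4, Lyz2 differed by 2.69, 3.02 and 3.34, and Mpeg1 by 2.18, 2.21 and 2.40. When 1 array was left out, the adjusted p of Lyz2, Lyz1 and Mpeg1 was at most 0.00427, 0.00808 and 0.00345.

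**Figure D2:**
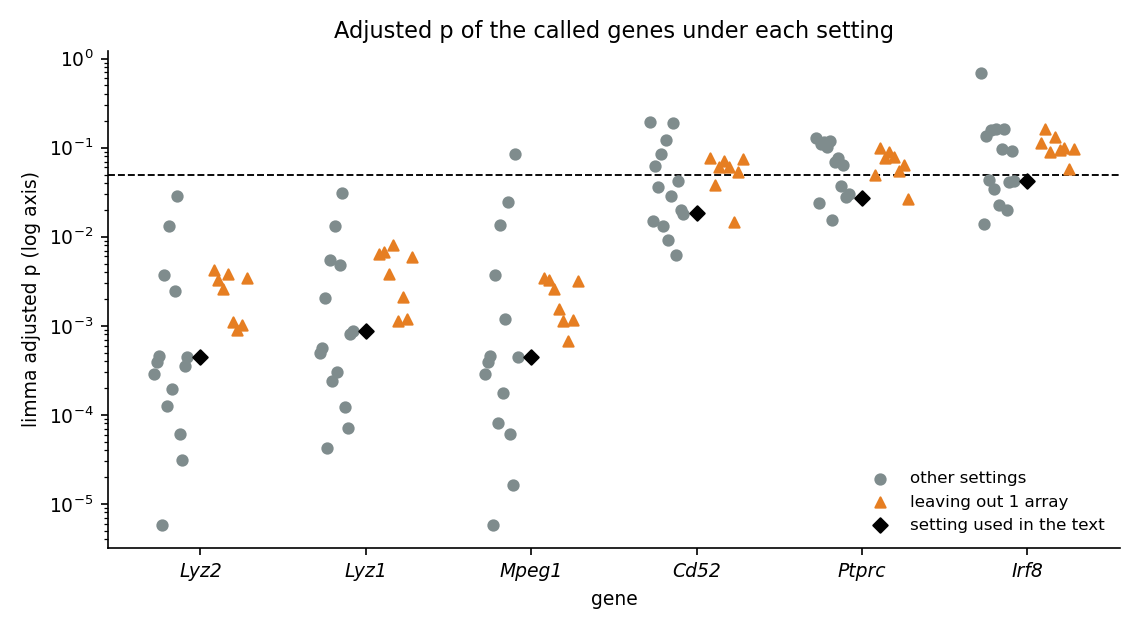
Limma adjusted p (log axis) of the 6 called genes under the setting of the text (black), other settings (grey) and after leaving out 1 array (orange). The dashed line is 0.05. Lyz2 and Lyz1 lie below it throughout, Mpeg1 crosses it once, and Cd52, Ptprc and Irf8 lie on both sides.

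Laptm5, the gene of a lysosomal membrane protein of blood cells, and Cd53, the gene of a leukocyte tetraspanin, were higher on average and did not pass. Laptm5 (chromosome 4, 130149289 to 130149348, mm7) gave -1.94, -2.45, -1.89 and -2.23 in Npc1-/- cerebellum, against -2.69, -3.25, -4.01 and -2.91 in wild-type cerebellum. The groups did not overlap, but the wild-type SD of 0.58 exceeded the Npc1-/- SD of 0.26, and the difference was 1.08 ± 0.28 log2 units (SE, limma adjusted p = 0.214). The other Laptm5 probe differed by 1.19 ± 0.45 (SE, adjusted p = 0.661 over all probes), with no overlap.

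The Cd53 probe, whose coordinates (chromosome 3, 106580416 to 106581510, mm7) span 1095 bases for a 60-base probe, gave -3.09, -2.86, -3.17 and -2.64 in Npc1-/- cerebellum, against -3.83, -3.90, -3.55 and -3.13 in wild-type cerebellum. Npc1-/- replicate 3 lay below the highest wild-type array, replicate 4. The difference was 0.66 ± 0.19 log2 units (SE, limma adjusted p = 0.322).

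Coro1a, the gene of coronin 1A, which binds actin filaments in leukocytes, was not called in either direction. Its brighter probe (chromosome 7, 122796469 to 122796528, mm7) gave 3.14, 3.12, 3.20 and 3.25 in Npc1-/- cerebellum, against 3.31, 3.25, 3.58 and 3.20 in wild-type cerebellum. The groups overlapped, and the log2 fold change was -0.16 ± 0.11 (SE, limma adjusted p = 0.752). Its other probe gave -0.22 ± 0.16 (SE, adjusted p = 0.811 over all probes). By the brighter probe Coro1a averaged 3.34 in wild-type cerebellum, against 0.97 for Lyz2 and 0.69 for the microglial marker Csf1r. Levels of different probes cannot be compared directly: the brighter and dimmer Lyz2 probes averaged 0.97 and -5.45 in wild-type cerebellum. Which cells carry the Coro1a signal was not tested, and whether its value is a reading of myeloid cells cannot be told.

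Spi1 encodes PU.1, the transcription factor on which microglia and other macrophages depend. Its single probe, with coordinates that span 13788 bases of chromosome 2 in mm7, gave -6.70, -7.06, -6.38 and -6.00 in Npc1-/- cerebellum, against -6.77, -6.09, -6.70 and -7.07 in wild-type cerebellum. No array had it well above background, so its change cannot be read here.

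**Figure D3:**
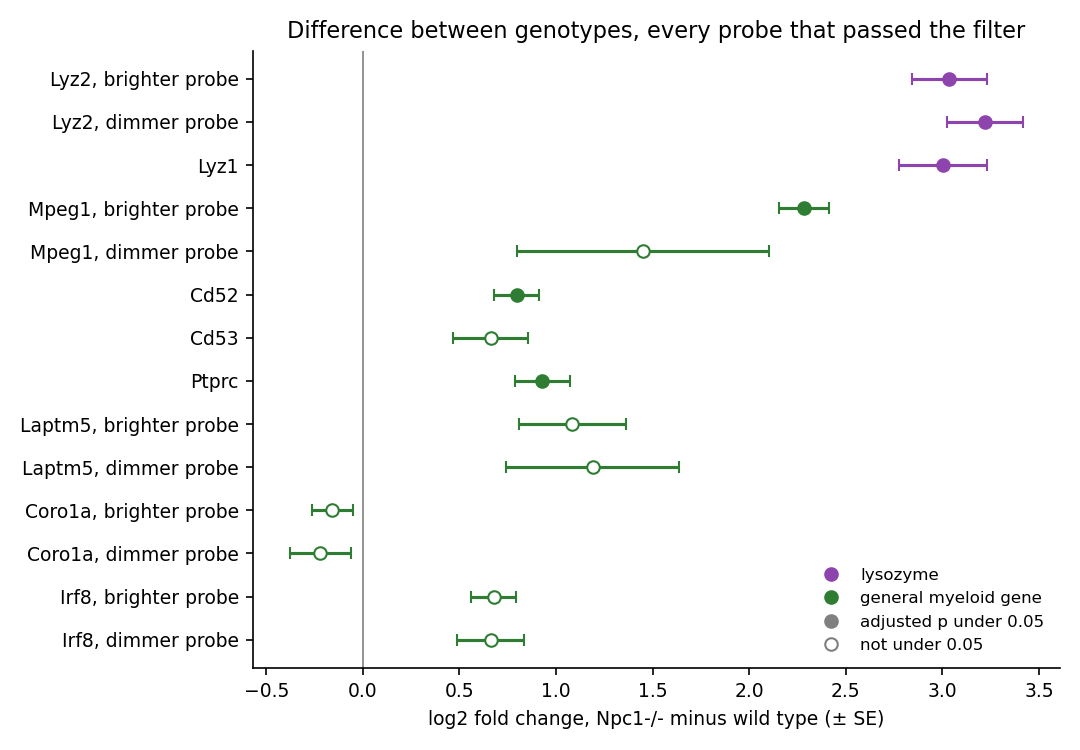
Log2 fold change (Npc1-/- minus wild type) with its SE for each of the 14 probes that passed the filter, from the fit over all probes. Filled points have a limma adjusted p under 0.05. The 3 lysozyme probes lie at 3.00 to 3.22. Mpeg1 lies at 2.28 by its brighter probe and at 1.45 by its dimmer probe. The probes of the other general myeloid genes lie between -0.22 and 1.19.

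The comparison that the choice of genes calls for is that of the lysozymes with the general myeloid genes. The lysozymes rose by 3.02 log2 units on average and the 7 general myeloid genes measured by 0.90, a difference of 2.12 log2 units or 4.36-fold. The mean of 0.90 includes Coro1a (-0.16), whose source cells were not tested, and Mpeg1 (2.28). The median of the 7 was 0.80. The mean lysozyme signal minus the mean general myeloid signal was 3.55, 3.69, 3.23 and 3.48 on the Npc1-/- arrays, against 0.84, 1.48, 1.89 and 1.25 on the wild-type arrays. The 2 genotypes lay apart on this measure by more than the spread within either. A difference between genes of the same array does not change with the scaling of that array.

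Each lysozyme was set against each general myeloid gene within arrays, 14 differences in all since Spi1 was not measured. These are not separate results: they share the lysozyme values, and the Lyz1 probe may read Lyz2. The genes and tests were also chosen with earlier results of these data known. In all 14 every Npc1-/- array lay above every wild-type array, and each gave a two-sided exact permutation p of 0.0286 (70 splits), also after adjustment over the 14, which is the smallest that 4 against 4 arrays allow. The rise of Lyz2 exceeded that of Coro1a by 3.19 ± 0.19, of Cd53 by 2.37 ± 0.23, of Irf8 by 2.36 ± 0.14, of Cd52 by 2.24 ± 0.23, of Ptprc by 2.11 ± 0.26 and of Laptm5 by 1.95 ± 0.51 log2 units (SE). The excess over Mpeg1 was the smallest of these, at 0.75 ± 0.15 for Lyz2 and 0.72 ± 0.19 for Lyz1. With quantile normalization, alone or after normexp background correction, Lyz1 against Mpeg1 no longer passed (0.70 and 0.57 log2 units, exact permutation adjusted p = 0.0571 in each).

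By the dimmer Lyz2 probe, with 2 of the wild-type arrays not well above background, the excess was 0.94 ± 0.17 over Mpeg1 and 3.38 ± 0.19 over Coro1a (SE). Within slides 2, 3 and 4 the mean lysozyme rise exceeded the mean general myeloid rise by 1.80, 2.03 and 2.39 log2 units. Leaving out 1 array gave 1.95 to 2.30. With Lyz2 alone by its brighter probe, or the Lyz1 probe alone, it was 2.14 or 2.11. Without any 1 of the Npc1-/- arrays, 10 of the 14 differences passed: the 4 against Mpeg1 and Laptm5 had an exact permutation adjusted p of 0.0571 (35 splits), with the genotypes still apart.

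The profiles over the 8 arrays were then compared, each centred on its own mean. As root mean square distance from the mean-centred profile of Lyz2, Lyz1 lay at 0.07, Mpeg1 at 0.42, Cd52 at 1.15 and Coro1a farthest, at 1.61 log2 units. Among genes outside the set, the 5 nearest to Lyz2 were the beta-glucan receptor gene Clec7a (0.29), the inhibitory receptor genes Cd22 (0.40), Pirb (0.43) and Cd300lf (0.48), and the galectin gene Lgals3 (0.51). Clec7a, Pirb, Cd300lf and Lgals3 rose by 2.26 to 2.89 log2 units, and after normexp and quantile normalization differed by 0.86 for Cd300lf to 1.76 for Lgals3. Of these, Cd300lf was above background on 2 of the wild-type arrays. Cd22 was above background on the Npc1-/- arrays alone, so its distance rests on background readings in wild type. Under the setting of the text its bound was at least 2.60-fold higher (limma adjusted p = 0.00262, with means of -4.01 in Npc1-/- and -6.93 in wild-type cerebellum). Under 12 other settings its difference went down to 0.81 log2 units, a smaller rise than that bound. It lost its call in 1 of them (limma adjusted p = 0.0589). The likeness is over 8 arrays that share the genotype difference, so it is a description.

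The 5 genes nearest to the mean profile of the general myeloid genes were Mgst2, which encodes a microsomal glutathione transferase, the interferon-inducible GTPase genes Irgm1 and Gbp3, and Arhgap30 and Arhgap25, which encode GTPase-activating proteins. Their distances were 0.11 to 0.12, and their log2 fold changes ran from 0.76 for Arhgap25 to 1.03 for Irgm1 (limma adjusted p = 0.0117 and 0.00389). Mgst2 lost its call when any 1 array was left out (adjusted p = 0.0731 to 0.135), Gbp3 without replicate 2 or 4 of Npc1-/-, and Arhgap25 without Npc1-/- replicate 4. Set against the mean of the other general myeloid genes, Ptprc lay at 0.13 and Cd52 at 0.16, but Coro1a at 0.64 and Mpeg1 at 0.82.

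**Figure D4:**
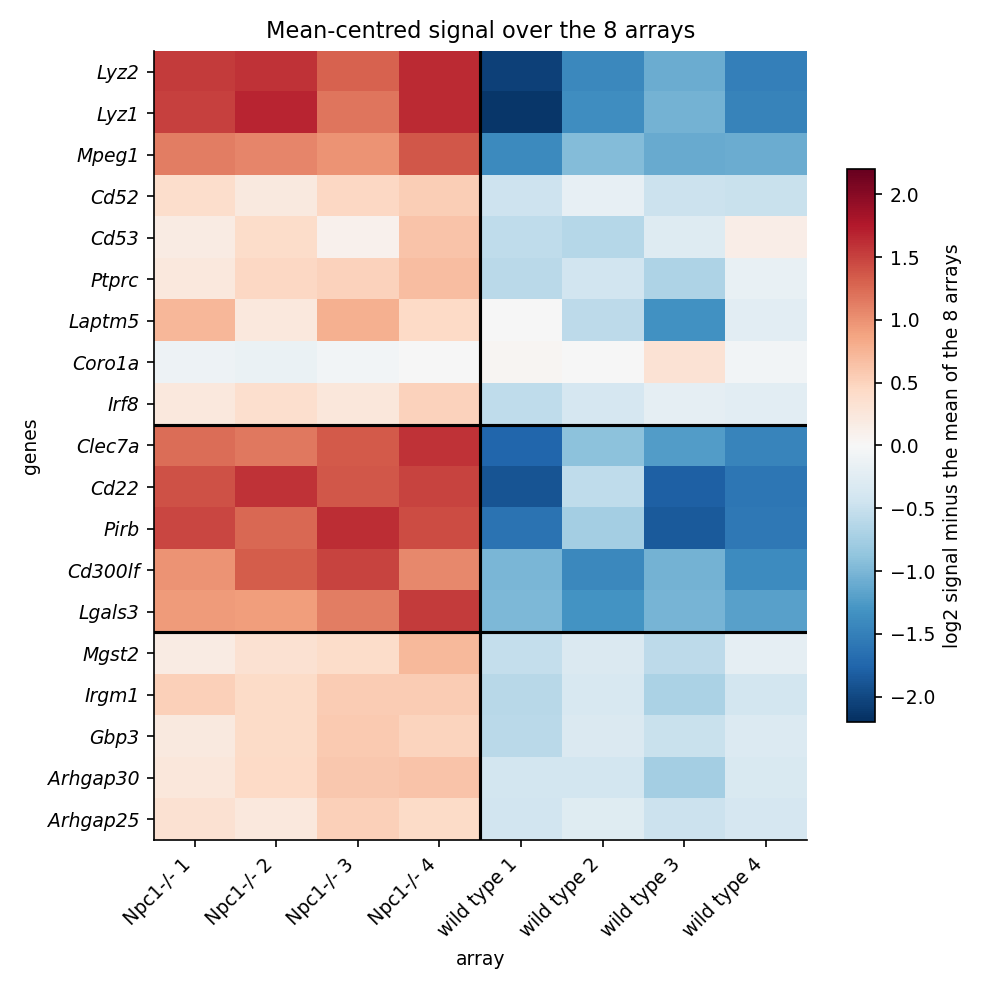
Log2 signal of each gene minus its mean over the 8 arrays, Npc1-/- arrays on the left and wild-type arrays on the right. Horizontal lines part the 9 measured genes of the set, the 5 genes nearest to Lyz2 and the 5 nearest to the mean general myeloid profile. Lyz2 and Lyz1 share one pattern, and Mpeg1 lies nearer to it than the other general myeloid genes.

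Lists of related genes were then counted by direction. Over all genes tested, 0.734% rose and 2.96% had every Npc1-/- array above every wild-type array. A short list in which none passed therefore lies near the share of all genes called, but not always near the share without overlap. Of 21 pan-leukocyte surface and signalling genes tested, 4 rose and none fell, with a median log2 fold change of 0.54. Those were the macrophage endolysosomal glycoprotein gene Cd68 (2.08 ± 0.13), the SLAM-family receptor gene Cd48 (1.79 ± 0.18), and the genes of the signalling adaptors Tyrobp (1.31 ± 0.15) and Fcer1g (0.93 ± 0.16, SE, limma adjusted p = 0.00045, 0.00389, 0.00676 and 0.0423). Cd48 was above background on 2 of the wild-type arrays; it gave 0.60 after normexp and quantile normalization and lost its call with quantile normalization alone (limma adjusted p = 0.115). Groups did not overlap, with Npc1-/- above wild type, in 11 of the 21.

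Of 13 leukocyte actin regulators, groups did not overlap in 8, with Npc1-/- above wild type. Of the same 13, 3 rose and none fell, with a median of 0.63. They were Myo1f, the gene of a leukocyte myosin (1.41 ± 0.16), Arhgap30 (0.95 ± 0.13) and Nckap1l, the gene of the blood-cell subunit of the WAVE complex (0.69 ± 0.12, SE, limma adjusted p = 0.00661, 0.0148 and 0.0465). None of the 6 coronin genes other than Coro1a passed, and their median was -0.04, near the -0.02 of all genes tested. None of 13 receptor-type phosphatases other than Ptprc passed (median -0.02), none of 8 tetraspanins other than Cd53 (median -0.09) and neither of the LAPTM genes Laptm4a and Laptm4b. None of 13 myeloid transcription factors passed (median 0.37), with 4 without overlap, and none of 7 other IRF genes (median 0.32), with 2 without overlap. None of 5 antimicrobial granule genes passed (median 0.22), and no array had Lcn2, Elane or Prf1 above background.

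Markers of the cells that could carry these transcripts moved as follows. Of 12 microglial markers, none passed, 11 were higher on average in Npc1-/- cerebellum and the median log2 fold change was 0.49. In 4 of the 12 every Npc1-/- array lay above every wild-type array, against 2.96% of all genes tested. Csf1r, the gene of the growth factor receptor on which microglia depend, differed by 0.47 ± 0.18 log2 units (SE, limma adjusted p = 0.590). Summed on a linear scale, the 12 markers gave 14.7 to 19.0 times the 75th percentile in Npc1-/- and 10.3 to 11.7 times in wild-type cerebellum. Their part in the general myeloid values was not tested.

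Of 7 markers of border macrophages, Ms4a7, the gene of a tetraspan membrane protein, rose (2.07 ± 0.24) and Pf4, the gene of a platelet and macrophage chemokine, fell by 1.81 on the log2 scale (SE 0.31, limma adjusted p = 0.00738 and 0.0423). The median of the 7 was -0.32, and their summed level was 0.63 to 1.23 in Npc1-/- and 0.73 to 1.29 in wild-type cerebellum. Of 5 monocyte markers tested, Plac8, above background on 2 of the wild-type arrays, rose (1.49 ± 0.26, SE, limma adjusted p = 0.0482), while Ccr2, the defining receptor of inflammatory monocytes, was above background on no array. The monocyte list summed to 5.40 to 8.53 in Npc1-/- and 5.57 to 7.55 in wild-type cerebellum, a sum made mostly of Ly6c1, which brain endothelium also expresses (mean log2 signal 2.64 in Npc1-/- and 2.44 in wild-type cerebellum), so it is not a reading of monocytes.

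Of 5 neutrophil markers tested, Csf3r, the receptor gene for granulocyte colony-stimulating factor, rose (1.23 ± 0.14, SE, limma adjusted p = 0.00661). No array had Elane or Retnlg above background, and the list summed to 0.92 to 1.30 in Npc1-/- and 0.74 to 1.21 in wild-type cerebellum. Of 3 B and plasma cell markers tested, Cd79b rose (0.89 ± 0.14, SE, limma adjusted p = 0.0296), with Cd79a, Jchain and Blk not above background on any array. The B and plasma cell list summed to 0.14 to 0.21 in Npc1-/- and 0.09 to 0.17 in wild-type cerebellum. None of 5 T and NK cell markers passed, their list (which holds Thy1, also a neuronal gene) summed to 58.8 to 83.0 in Npc1-/- and 59.6 to 70.3 in wild-type cerebellum, and Cd3d, Cd3g, Cd247, Cd8a, Gzma and Gzmb were not above background on any array. None of the red cell (4 tested), platelet (1 tested), endothelial (4 tested), epithelial (2 tested) or choroid plexus (3 tested) markers passed. Of the Paneth and epithelial list, Mmp7, an enzyme gene of Paneth cells, was above background on 1 Npc1-/- array and Epcam on none.

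When 1 array was left out, Cd68, Cd48, Tyrobp, Myo1f, Ms4a7 and Csf3r passed in all 8 fits. Arhgap30 passed in 5 (not without replicate 2, 3 or 4 of Npc1-/-). Fcer1g passed in 2 (without Npc1-/- replicate 3 or wild-type replicate 2), Pf4 in 2 (without wild-type replicate 1 or 2), Plac8 in 1 (without wild-type replicate 4), Cd79b in 1 (without wild-type replicate 2) and Nckap1l in none, with a highest adjusted p of 0.0639, 0.160, 0.130, 0.157, 0.0962 and 0.177 for these genes in that order. After normexp and quantile normalization, Arhgap30, Plac8, Csf3r and Cd79b gave 0.54, 0.43, 0.46 and 0.32 and lost their calls (limma adjusted p = 0.0621, 0.342, 0.0666 and 0.379), and Myo1f and Ms4a7 gave 0.90 and 1.19.

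**Figure D5:**
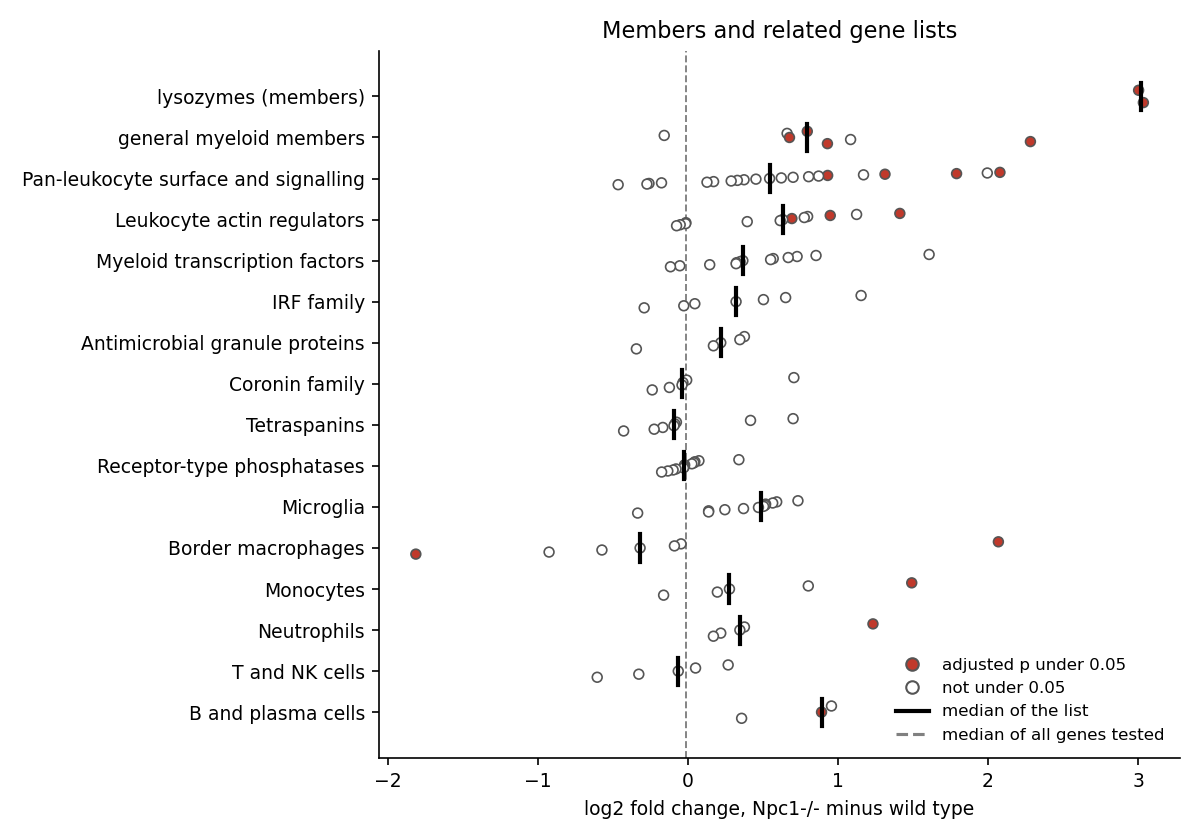
Log2 fold change (Npc1-/- minus wild type) of the measured genes and of each tested gene of the related lists. Filled points have a limma adjusted p under 0.05, black bars are list medians and the dashed line is the median of all genes tested. The lysozymes lie at 3.00 and 3.03, and the general myeloid genes spread between -0.16 and 2.28.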

How the data were processed

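The values are spot intensity, deposited as the scanner software wrote it (Agilent Feature Extraction, version 9.5, per the submitters' processing notes): background-subtracted and unscaled, per the file headers. Other deposited columns give flags, names and mm7 coordinates. Each array had 500 ng of RNA, per the labels. Every array was put on a log2 scale and its 75th percentile over non-control spots subtracted. Spots flagged as outliers (74 to 115 per array) were dropped; none was saturated. Spots of 1 probe were averaged, and the brightest kept probe stood for its gene. A bound ("at least") sets the bright group's mean against the larger, on each dim array, of the dim probe's signal and that of the faintest probe above background.

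limma 3.58.1 (R 4.3.3) tested genotype alone with moderated, two-sided tests, adjusted by Benjamini-Hochberg over 17983 genes or 27164 probes; the fit was tested on simulated data. Of 16 planned lysozyme differences, 14 could be measured. Names came from a RefSeq table (GRCm38.p6) by accession for 22951 probes, symbol for 6659 and synonym for 3109, and 8455 kept the file's name. Genes, lists, motifs and tests were chosen with earlier results of these data known. Named are, per list, up to 4 called genes with the largest change or, with none called, the 2 brightest; this last part was kept for microglia alone, where 1 of the 2 is not reported here, and genes above background on no array were added. Array correlations ran from 0.969 to 0.994. The arrays lay on 4 slides scanned on 2 days; slide 1 held wild-type replicate 4 alone, so it gives no within-slide value. Plots used matplotlib 3.10.9.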

Additional observations from a re-analysis of the deposited data

Results flagged for a closer look

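One value stood apart from its group. The Cd52 signal of wild-type replicate 2 was -2.71 log2 units, above the other 3 wild-type arrays, and its gap to the nearest was 0.866 of the whole range of the group. It lay on the side of the Npc1-/- arrays and still below all of them. Of 28 groups of 4 arrays examined (14 probes in each genotype), chance marks about 1 in 20. Without this array Cd52 differed by 0.87 log2 units (limma adjusted p = 0.0145).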

How the results depend on the processing

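The mean lysozyme rise exceeded the mean general myeloid rise by 2.07 to 2.32 log2 units under 17 other settings, which included, added after seeing the data, the median over spots and each lysozyme probe alone. Lyz1 and Lyz2 passed in all 14 other fits and Mpeg1 in 13. Cd52 passed in 9 of 14, Irf8 in 7 of 14 and Ptprc in 5 of 13. Against 138 genes called in all, 6 of the set, 4 general myeloid and 12 other listed genes, the counts were 75, 3, 1 and 8 with the array's median for scaling, which moved the median of all genes to -0.12; 87, 3, 1 and 6 with quantile normalization; 59, 3, 1 and 6 with no filter; 88, 5, 3 and 7 with probes above background on all 8 arrays; 38, 3, 1 and 2 with the slide as a fixed block; 97, 4, 2 and 8 with scan day; 280, 6, 4 and 19 with array weights; and 135, 4, 2 and 12 with the mean of all probes. Leaving out 1 array gave 55 to 148, 3 to 4, 1 to 2 and 6 to 14. With the replicate block the counts were 27, 3, 1 and 3. Same-numbered arrays correlated at -0.44 to 0.20. Npc1-/- replicates 1 and 2 correlated best with the same-numbered wild-type array, and replicates 3 and 4 with another. So few values cannot tell whether the numbers pair the mice. Probe calls ranged from 4 to 7, and lysozyme differences that passed from 10 to 14 of 14. The dim family members changed sign: Lalba gave -0.11 and Lyzl4 0.0073 with array weights, and leaving out 1 array gave Lalba -0.070 to 0.82 (below 0 without Npc1-/- replicate 2) and Lyzl4 -0.68 to 0.80 (above 0 without wild-type replicate 2). The causes were not tested. Signals near background limit Cd53, Ptprc, Spi1 and the dimmer probes.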
